A study of Homo sapiens with 9 samples.

Results

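The genes described here encode the nuclear part of respiratory complexes II to V, together with cytochrome c and the assembly factors that share their names. They were chosen by a rule on gene symbols, with earlier results of these data known. The rule took the genes whose names begin with UQCR, UQCC, COX4 to COX8, COX10 to COX20, ATP5 or SDHAF. It also took the 4 subunits of succinate dehydrogenase (SDHA to SDHD), CYC1 and CYCS. In all, 61 of the 11350 genes in the count table matched. Of these, 41 encode subunits (4 of complex II, 9 of complex III, 10 of complex IV, 17 of complex V and cytochrome c itself), 15 encode assembly factors, 1 encodes an inhibitor of complex V, and 4 are copies or pseudogenes of a subunit or assembly factor gene. Subunits encoded by the mitochondrial genome were not members and are described apart.

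Their RNA was measured in 3 lines of HCT116, an established human colorectal carcinoma cell line, with 3 libraries of each line and no treatment. HUWE1-P cells are the parental line. In the edited lines the last part of the endogenous gene for HUWE1, a ubiquitin ligase of the HECT family, was exchanged by CRISPR for a template that keeps the catalytic cysteine (HUWE1-WT) or puts serine in its place (HUWE1-CS). Both edited lines carry a blasticidin resistance gene behind HUWE1 and were grown as single-cell clones after selection with puromycin and blasticidin. How many clones stand behind the 3 libraries of a line is not given in the sources used here, so that p-values measure the spread between these libraries only. HUWE1-CS cells were compared with each control line, and HUWE1-WT with HUWE1-P cells shows what the editing itself goes along with.

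In the respiratory chain, complex II passes electrons from succinate to ubiquinone, complex III passes them on to cytochrome c, and complex IV hands them to oxygen. Complexes III and IV pump protons across the inner mitochondrial membrane, and complex V, the ATP synthase, lets them flow back through a rotating ring and makes ATP. All subunits of complex II are nuclear genes, whereas complexes III, IV and V also hold subunits made from mitochondrial DNA, so that products of both genomes are needed in fixed proportions. Assembly factors insert heme, copper and iron-sulfur clusters and help the parts to join, and most do not stay in the finished complex.

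Promoter sequences are shown for a pair of complex V genes from each side of the main comparison, because genes of the same part of the enzyme fell on both sides of the threshold there. ATP5MC1 and ATP5MC2 encode the same ring subunit c, and ATP5PD and ATP5PB encode neighbouring subunits of the peripheral stalk. Of each pair, the first was called higher in HUWE1-CS than in HUWE1-P cells and the second was not. The 250 bases before the most upstream start listed in RefSeq are given on GRCh38.p14, 5′ to 3′ on the strand of the gene, with matches in capitals to CCAAT (the CCAAT box, its reverse complement ATTGG included), CCGGAAG (the ETS motif bound by GABPA, its reverse complement CTTCCGG included) or CACGTG (an E-box).
ATP5MC1, chr17:48892537-48892786, plus strand: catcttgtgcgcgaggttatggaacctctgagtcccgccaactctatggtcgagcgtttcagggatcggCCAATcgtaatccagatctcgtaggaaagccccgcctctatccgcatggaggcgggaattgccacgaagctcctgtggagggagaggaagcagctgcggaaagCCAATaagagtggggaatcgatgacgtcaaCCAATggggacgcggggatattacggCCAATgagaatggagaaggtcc
ATP5MC2, chr12:53676331-53676580, minus strand: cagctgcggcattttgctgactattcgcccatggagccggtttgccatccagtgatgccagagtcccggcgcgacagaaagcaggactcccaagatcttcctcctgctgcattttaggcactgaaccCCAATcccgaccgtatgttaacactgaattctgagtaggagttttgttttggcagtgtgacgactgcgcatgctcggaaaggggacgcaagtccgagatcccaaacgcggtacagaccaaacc
ATP5PD, chr17:75046970-75047219, minus strand: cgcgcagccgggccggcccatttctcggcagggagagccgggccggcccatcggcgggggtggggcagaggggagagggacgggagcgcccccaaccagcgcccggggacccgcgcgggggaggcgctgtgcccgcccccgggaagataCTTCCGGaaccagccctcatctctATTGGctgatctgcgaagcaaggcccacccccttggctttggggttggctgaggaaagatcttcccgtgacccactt
ATP5PB, chr1:111449214-111449463, plus strand: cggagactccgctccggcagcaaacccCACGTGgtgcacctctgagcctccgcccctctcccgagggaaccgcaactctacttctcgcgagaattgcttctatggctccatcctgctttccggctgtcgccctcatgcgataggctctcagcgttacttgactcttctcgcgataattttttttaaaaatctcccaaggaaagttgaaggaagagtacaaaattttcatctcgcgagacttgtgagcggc
The ATP5MC1 promoter held 4 CCAAT boxes within 181 bases of the start, and the ATP5MC2 promoter held 1. The window of ATP5PD held 1 ETS motif and 1 CCAAT box, and that of ATP5PB held neither but 1 E-box near its far end. For ATP5MC2, 3 starts are listed, and which of them these cells use was not measured.

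A promoter was listed for 47 of the 61 members. NRF1 and GABPA are transcription factors known to bind the promoters of many nuclear respiratory genes. Matches to the NRF1 motif GCGCANGCG, on either strand, were found in 31.9% of the members, 14.4% of the table's genes and 7.02% of all promoters. The ETS motif CCGGAAG was found in 34.0% of the members, 17.2% of the table's genes and 8.78% of all promoters. Shares of the CCAAT box were 36.2% of the members and 35.6% of the table's genes, shares of the E-box 8.51% and 9.27%, shares of TATAAA 8.51% and 4.69%, and shares of the YY1 motif AAGATGGC 2.13% and 1.99%. Members called higher in HUWE1-CS than in HUWE1-P cells (defined below by edgeR) held the NRF1 motif in 9 of 23 promoters, and the other members in 6 of 24. For the ETS motif these numbers were 10 of 23 and 6 of 24. For the CCAAT box they were 9 of 23 and 8 of 24, and for the E-box and for TATAAA 2 of 23 and 2 of 24. The YY1 motif was found in 1 of 23 and 0 of 24. None of these differences was tested. Matches of letters are a description and do not show binding.

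The libraries held from 1610984 to 2060349 counts. Levels are given in CPM, counts scaled to the library total with TMM factors, and 3 counts are worth 1.45 to 1.86 CPM. HUWE1, whose product is edited, stood at 543 ± 19.8 CPM in HUWE1-P, 469 ± 25.8 in HUWE1-WT and 336 ± 11.7 in HUWE1-CS cells (mean ± SD, n = 3), and counts per gene do not show the exchanged codon. Of 7 epithelial markers 6 were in the table, from CDX2 at 15.5 to 28.9 CPM to KRT8 at 1603 to 2217 CPM, and 2 of the 6 were called higher and 2 lower in HUWE1-CS cells in each comparison with a control, with log2 fold changes of -0.32 to 0.53 against HUWE1-P cells. Of markers of other cells, COL1A1 (fibroblasts) was at 8.71 to 25.6 CPM and CD68 (macrophages) at 6.39 to 14.5 CPM, and no row was found for the other 10 of 12. COL1A1 fell in HUWE1-CS cells by 0.96 against HUWE1-P and by 0.88 against HUWE1-WT cells on the log2 scale, and any part of such cells in the results was not tested.

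RNA of the respiratory genes was higher in HUWE1-CS than in HUWE1-P cells, with most of the calls among subunits. A gene was called changed at a false discovery rate (FDR) of at most 0.01 over all 11350 genes in edgeR's quasi-likelihood test. By this rule 32 of the 61 members rose and 0 fell, against a background of 8.46% of all genes called higher and 8.58% called lower. Because the members were chosen with earlier results of these data known, this contrast is a description and not an independent test. The median log2 fold change of the members was 0.33 (all genes, -0.01), 57 of 61 values were above 0, and no member rose by more than 0.77 (ATP5PD), a 1.71-fold difference. Of the subunits 28 of 41 rose (median 0.37), of the assembly factors, which had fewer counts, 2 of 15 (median 0.17). All 3 HUWE1-CS libraries stood above all 6 control libraries for 34 of 61 members and below them for 0, where 12.9% and 13.4% of all genes did so. CPM values are shares of each library, and in bulk RNA a change in all cells cannot be told apart from a larger change in some of them.

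Complex V had the member with the largest log2 fold change, and also subunits without a detectable difference. In its peripheral stalk, which holds the catalytic head still while the ring turns, 3 of 4 genes rose. ATP5PD (chr17:73034958-73043080 on GRCh37, as all positions of genes below), which encodes subunit d, was measured at 140.3, 177 and 150.3 CPM in HUWE1-P, 153, 184 and 179 CPM in HUWE1-WT and 272, 257 and 273 CPM in HUWE1-CS cells. The lowest HUWE1-CS library lay well above the highest control, and relative to HUWE1-P cells the log2 fold change was 0.77 ± 0.0793 (SE; edgeR, adjusted p = 6.10e-14). ATP5PF, for subunit F6, had a log2 fold change of 0.64 ± 0.118 (SE; edgeR, adjusted p = 8.36e-06), and ATP5PO, for the subunit that joins stalk and head, 0.44 ± 0.0860 (SE; edgeR, adjusted p = 3.09e-05). ATP5PB (chr1:111991486-112005395), which encodes subunit b of the same stalk, was at 272, 223 and 268 CPM in HUWE1-P, 249, 272 and 252 CPM in HUWE1-WT and 246, 241 and 246 CPM in HUWE1-CS cells. Its HUWE1-CS libraries lay within the range of HUWE1-P and slightly below those of HUWE1-WT cells. Against HUWE1-P cells the log2 fold change of -0.06 had a 95% confidence interval of -0.20 to 0.09 (edgeR, adjusted p = 0.608).

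The catalytic head of complex V is built from alternating alpha and beta subunits in equal number, and the gene of the beta subunit was called higher while that of the alpha subunit was not. ATP5F1B (chr12:57031959-57039768), for the beta subunit, stood at 1233, 1256 and 1171 CPM in HUWE1-P, 1250.4, 1326 and 1236 CPM in HUWE1-WT and 1608, 1597 and 1589 CPM in HUWE1-CS cells. No HUWE1-CS library overlapped a control, and the gene rose by a log2 fold change of 0.39 ± 0.0542 (SE; edgeR, adjusted p = 6.75e-09). ATP5F1A (chr18:43660214-43684300), for the alpha subunit, stood at 734, 714 and 691 CPM in HUWE1-P, 704, 731 and 745 CPM in HUWE1-WT and 760.2, 757 and 757 CPM in HUWE1-CS cells. Here the HUWE1-CS libraries were also above all controls, but by little, with a log2 fold change of 0.09 and an interval of -0.03 to 0.20 (edgeR, adjusted p = 0.275). The difference between ATP5F1B and ATP5F1A was not tested. In the central stalk that turns inside the head, ATP5F1C (gamma) rose by 0.35 and ATP5F1D (delta) by 0.49 on the log2 scale, and ATP5F1E (epsilon), at 0.21, was not called. Of the small subunits in the membrane ATP5MD rose by 0.64, ATP5ME by 0.53 and ATP5MF by 0.37, while ATP5MG (0.15) and ATP5MPL (0.12) were not called.

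ATP5IF1 (chr1:28562620-28573417) encodes the protein that keeps complex V from running backwards and hydrolysing ATP. It was measured at 82.6, 88.7 and 89.6 CPM in HUWE1-P, 84.0, 91.6 and 109 CPM in HUWE1-WT and 116, 128 and 127 CPM in HUWE1-CS cells. All HUWE1-CS libraries were above all controls, and the log2 fold change of 0.50 ± 0.10 (SE; edgeR, adjusted p = 4.06e-05) was close to the larger values among the subunits.

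Subunit c, of which the rotating ring is made, is encoded by 3 genes whose mature proteins are the same and whose import sequences differ. ATP5MC1 (chr17:46970127-46973233) was at 104, 105 and 101 CPM in HUWE1-P, 100.2, 128 and 112 CPM in HUWE1-WT and 157, 164 and 159 CPM in HUWE1-CS cells. ATP5MC2 (chr12:54026510-54071192) was at 109.9, 113 and 109 CPM in HUWE1-P, 112, 116 and 115 CPM in HUWE1-WT and 116, 125 and 113 CPM in HUWE1-CS cells, and ATP5MC3 (chr2:176040986-176046438) at 256, 258 and 240.4 CPM in HUWE1-P, 240.5, 271 and 262 CPM in HUWE1-WT and 313, 333 and 301 CPM in HUWE1-CS cells. ATP5MC1 and ATP5MC3 were above all controls in each HUWE1-CS library, whereas ATP5MC2 overlapped with them. The log2 fold changes against HUWE1-P cells were 0.63 ± 0.0912 (SE; edgeR, adjusted p = 2.32e-08) for ATP5MC1, 0.33 ± 0.0698 (SE; edgeR, adjusted p = 1.01e-04) for ATP5MC3 and 0.09, with an interval of -0.09 to 0.28, for ATP5MC2 (edgeR, adjusted p = 0.501).

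The share of each gene in this mRNA was compared across the lines. ATP5MC1 supplied 22.2, 22.1 and 22.5% of the summed CPM of the 3 genes in the HUWE1-P libraries, 22.2, 24.9 and 22.9% in HUWE1-WT and 26.8, 26.3 and 27.7% in HUWE1-CS. ATP5MC2 supplied 23.8 ± 0.410%, 23.6 ± 1.13% and 19.9 ± 0.238% (mean ± SD, n = 3), and ATP5MC3 54.0 ± 0.579%, 53.1 ± 0.431% and 53.2 ± 0.527%. The share of ATP5MC1 was 4.72 percentage points higher in HUWE1-CS than in HUWE1-P cells and 3.62 points higher than in HUWE1-WT cells, without overlap. That of ATP5MC2 was lower without overlap, and that of ATP5MC3 overlapped. In an exact two-sided permutation test of 3 against 3 libraries, each of the differences without overlap had p = 0.1, the smallest that this design allows.

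In complex IV, cytochrome c oxidase, 9 of 10 nuclear subunits rose, with a median log2 fold change of 0.48 over all 10. COX4I1 (chr16:85832239-85840674), for subunit 4, the largest of the nuclear subunits, was at 356, 375 and 369 CPM in HUWE1-P, 362, 376 and 386 CPM in HUWE1-WT and 486, 530.3 and 496 CPM in HUWE1-CS cells. COX6C, a small membrane subunit, was at 106, 104 and 91.1 CPM in HUWE1-P, 109.5, 116 and 107 CPM in HUWE1-WT and 139, 169 and 157 CPM in HUWE1-CS cells. Both were higher in every HUWE1-CS library than in any control, with log2 fold changes of 0.46 ± 0.0641 (SE; edgeR, adjusted p = 7.32e-09) and 0.64 ± 0.0928 (SE; edgeR, adjusted p = 2.32e-08). COX7C (0.50), COX6A1 (0.51), COX6B1 (0.52), which faces cytochrome c, and COX5B (0.51), which binds zinc, formed a narrow group. COX8A (0.46), COX7A2 (0.38) and COX5A (0.31) rose by less. COX7B (chrX:77154937-77162873) was the exception, at 77.6, 73.0 and 81.4 CPM in HUWE1-P, 63.7, 76.9 and 77.9 CPM in HUWE1-WT and 78.3, 91.3 and 99.3 CPM in HUWE1-CS cells. Only 2 of 3 of its HUWE1-CS libraries exceeded the controls, and its log2 fold change of 0.21 had an interval of -0.01 to 0.43 (edgeR, adjusted p = 0.154). The tissue-specific variants COX4I2, COX6A2, COX6B2, COX7A1 and COX8C of these subunits had no row under these symbols in the count table.

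In complex III, the cytochrome bc1 complex, 6 of 9 subunits rose (median log2 fold change 0.32). UQCRQ (chr5:132202322-132204539), a small subunit, was at 94.3, 87.0 and 93.0 CPM in HUWE1-P, 89.8, 95.4 and 93.6 CPM in HUWE1-WT and 125, 141 and 128 CPM in HUWE1-CS cells, with a log2 fold change of 0.52 ± 0.0959 (SE; edgeR, adjusted p = 8.02e-06). CYC1, cytochrome c1, which passes electrons to cytochrome c, was at 238, 259 and 221 CPM in HUWE1-P, 233, 265 and 229 CPM in HUWE1-WT and 334, 314 and 311 CPM in HUWE1-CS cells. Neither gene overlapped with a control, and CYC1 rose by 0.42 ± 0.0715 (SE; edgeR, adjusted p = 1.50e-06) on the log2 scale. The core proteins UQCRC1 (0.38) and UQCRC2 (0.32) and the small subunits UQCR11 (0.32) and UQCRB (0.30) rose as well. UQCRFS1 (chr19:29696227-29704058), the Rieske iron-sulfur protein that moves between the sites of electron transfer, was at 131, 124 and 122 CPM in HUWE1-P, 135, 159 and 162 CPM in HUWE1-WT and 138, 142 and 129 CPM in HUWE1-CS cells. Its HUWE1-CS libraries overlapped with both control lines, and their mean differed by 0.12 from HUWE1-P (95% confidence interval -0.06 to 0.30; edgeR, adjusted p = 0.335) and -0.15 from HUWE1-WT cells (edgeR, adjusted p = 0.210) on the log2 scale. UQCR10 (0.26) and UQCRH (0.24) were not called.

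UQCRH, the hinge protein near cytochrome c1, has an intronless copy, UQCRHL, so that reads can be split between them and both values are uncertain. UQCRHL was called higher against HUWE1-P cells (0.51) while UQCRH was not. Summed over the pair, the level was 199.9 ± 11.0 CPM in HUWE1-P, 226 ± 9.22 in HUWE1-WT and 251 ± 12.1 in HUWE1-CS cells (mean ± SD, n = 3), a 1.25-fold difference between HUWE1-CS and HUWE1-P cells. For UQCRB with its pseudogene UQCRBP1 the sum was 1.23-fold and for ATP5F1E with ATP5F1EP2 1.15-fold higher than in HUWE1-P cells. COX20P1, a pseudogene of COX20, was the only member under 10 counts in some library, and its log2 fold change of -0.61 was not called.

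In complex II both soluble subunits were called higher against HUWE1-P cells, and both membrane anchors had smaller values in the same direction that were not called. SDHA (chr5:218418-257197), the flavoprotein that oxidizes succinate, was at 180.0, 168 and 175 CPM in HUWE1-P, 172, 177 and 183 CPM in HUWE1-WT and 207, 249 and 221 CPM in HUWE1-CS cells. SDHB (chr1:17345159-17380527), which carries the iron-sulfur clusters, was at 128, 119 and 132 CPM in HUWE1-P, 121, 144 and 131 CPM in HUWE1-WT and 152, 159 and 171 CPM in HUWE1-CS cells. For both, the HUWE1-CS libraries lay above all controls, with log2 fold changes against HUWE1-P cells of 0.37 ± 0.0777 (SE; edgeR, adjusted p = 9.03e-05) and 0.35 ± 0.0873 (SE; edgeR, adjusted p = 0.00131). The call of SDHB was lost with DESeq2, with a trend over transcript length removed within each library, and without HUWE1-P replicate 2 or HUWE1-CS replicate 3. The anchors SDHC and SDHD had log2 fold changes of 0.22 (95% confidence interval 0.02 to 0.42) and 0.19 (0.01 to 0.36). Against HUWE1-WT cells only SDHA (0.35) was called, with 0.28 for SDHB, 0.33 for SDHC and 0.22 for SDHD, and the difference between soluble subunits and anchors was not tested. CYCS (chr7:25158275-25164879), cytochrome c, which moves between complexes III and IV and also starts the apoptosome, was at 385, 395 and 409 CPM in HUWE1-P, 349, 409 and 427 CPM in HUWE1-WT and 396, 426 and 426 CPM in HUWE1-CS cells. The lines overlapped, and its log2 fold change of 0.07 had an interval of -0.06 to 0.20 (edgeR, adjusted p = 0.474).

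Among the assembly factors 2 of 15 rose (13.3%, beside 8.46% of all genes), and DESeq2 called 1 of 15. They were UQCC1 and UQCC3 in edgeR, which help cytochrome b into complex III. Assembly factors had fewer counts than subunits (median 58.9 against 247) and larger SEs (median 0.166 against 0.0873). The part of this in the number of calls was not tested. UQCC1 (chr20:33890369-33999834) was at 50.3, 47.1 and 52.0 CPM in HUWE1-P, 54.5, 50.7 and 57.0 CPM in HUWE1-WT and 75.4, 68.1 and 76.6 CPM in HUWE1-CS cells, and UQCC3 (chr11:62437745-62441158) at 44.1, 41.5 and 44.3 CPM in HUWE1-P, 38.2, 36.5 and 47.7 CPM in HUWE1-WT and 51.6, 64.7 and 70.3 CPM in HUWE1-CS cells. Both were higher in all HUWE1-CS libraries, with log2 fold changes of 0.55 ± 0.123 (SE; edgeR, adjusted p = 2.37e-04) and 0.52 ± 0.136 (SE; edgeR, adjusted p = 0.00182). The call of UQCC3 was lost with DESeq2 and without HUWE1-P replicate 2, HUWE1-CS replicate 2 or HUWE1-CS replicate 3. UQCC2, which acts with UQCC1, was at 24.2, 37.0 and 26.0 CPM in HUWE1-P, 24.9, 25.6 and 26.7 CPM in HUWE1-WT and 18.4, 25.0 and 26.1 CPM in HUWE1-CS cells, and its log2 fold change of -0.33, with an interval of -0.70 to 0.05, was not called. UQCC3 shares 508 exon bases, 26.4% of its canonical transcript, with LBHD1 on the other strand, and whether the counting used strand is not given in the sources used here. LBHD1 itself had a log2 fold change of 0.15 (edgeR, adjusted p = 0.299).

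Of 9 assembly factors of complex IV 0 were called by edgeR (0 at an unadjusted p under 0.05, and 0 by DESeq2). Among all genes 8.46% were called higher and 8.58% lower against HUWE1-P cells. The log2 fold changes of the 9 factors against HUWE1-P cells ran from -0.13 (COX14) to 0.35 (COX18). COX14, COX16 (0.14) and COX18 act on the subunits made in mitochondria. The others include COX10 (0.05) and COX15 (0.06), which make heme a, the copper proteins COX17 (0.17), COX11 (0.10) and COX19 (0.33), and COX7A2L (0.14), which joins complexes III and IV into supercomplexes. Of 3 factors of complex II 0 were called by edgeR against HUWE1-P cells (1 at an unadjusted p under 0.05, and 0 by DESeq2). Log2 fold changes were 0.49 for SDHAF1, 0.28 for SDHAF3 and 0.26 for SDHAF2, all of which serve the maturation of SDHA or SDHB. Against HUWE1-WT cells the values of the 3 ran from 0.06 to 0.65. Their median there was 0.50, beside 0.33 for all subunits. By edgeR 0 of 3 were called there, and 2 had an unadjusted p under 0.05. An FDR of at most 0.05, or omission of HUWE1-WT replicate 1 or HUWE1-CS replicate 3, gave 1 of 3. SDHAF1, at 17.5 ± 1.81 CPM in HUWE1-P cells (mean ± SD, n = 3), had an SE of 0.209 on the log2 scale, where ATP5PD had 0.0793. Summed over all 15, assembly factors were 1.14-fold higher than in HUWE1-P and 1.15-fold higher than in HUWE1-WT cells, and the subunits 1.27- and 1.22-fold. The log2 ratio of the subunits to the assembly factors was higher by 0.15 ± 0.0114 (difference ± SE) against HUWE1-P and by 0.09 ± 0.0252 against HUWE1-WT cells, without overlap, with an exact two-sided permutation p of 0.1 each, the smallest possible.

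The same direction was found against HUWE1-WT cells, which underwent the same editing. There 27 of 61 members rose and 0 fell (background 7.42% higher and 8.08% lower), with a median log2 fold change of 0.29, and 24 of 41 subunits and 2 of 15 assembly factors were among them. Both comparisons share the HUWE1-CS libraries. The 27 genes were also called against HUWE1-P cells. Called against HUWE1-P cells alone were SDHB, UQCRC2, UQCRB, UQCRHL and COX8A, with log2 fold changes against HUWE1-WT cells of 0.28, 0.21, 0.26, 0.33 and 0.25. The largest log2 fold changes against HUWE1-WT cells among called members were 0.70 ± 0.120 (SE; edgeR, adjusted p = 2.09e-06) for ATP5PF and 0.63 ± 0.0784 (SE; edgeR, adjusted p = 1.61e-10) for ATP5PD, followed by UQCC3 (0.61), COX5B (0.57) and ATP5ME (0.57). ATP5PB (-0.08), ATP5F1A (0.06), ATP5MC2 (0.05) and CYCS (0.08) were near 0 in this comparison too. With DESeq2, without HUWE1-WT replicate 1 or 2, or without HUWE1-CS replicate 1 or 3, UQCC1 was not called here, and ATP5IF1 was not called with DESeq2 or without HUWE1-WT replicate 1 or 2 or HUWE1-CS replicate 2.

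Between the control lines 0 of 61 members were called by edgeR (background 0.00881% higher and 0.0529% lower), and DESeq2 called 0 as well. At an unadjusted p under 0.05 in edgeR's test, which was fitted across all 11350 genes, the members were 4. Their log2 fold changes were above 0 in HUWE1-WT against HUWE1-P cells, for UQCRFS1 (0.27), COX8A (0.21), COX6A1 (0.18) and UQCRH (0.17). The median of all members was 0.04.

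To compare the complexes, the CPM of the nuclear subunits of each were summed in every library. Complex II summed to 538, 515 and 529 CPM in the HUWE1-P, 507, 548 and 521 in the HUWE1-WT and 614, 652 and 674 in the HUWE1-CS libraries. For complex III these sums were 1403, 1430.1 and 1356 CPM in HUWE1-P, 1433, 1582 and 1448 in HUWE1-WT and 1701, 1793 and 1779 in HUWE1-CS cells. Complex IV gave 1487, 1513 and 1457 in HUWE1-P, 1465, 1640.3 and 1556 in HUWE1-WT and 1948, 2151 and 2023 in HUWE1-CS cells. In all of these complexes each HUWE1-CS library was above each control. The same was true of complex V, with 3931 ± 63.7, 4059.7 ± 172 and 4941 ± 82.9 CPM (mean ± SD, n = 3), of which ATP5F1B alone gave 31.0 ± 0.636% in HUWE1-P cells. Sums in HUWE1-CS over HUWE1-P cells were 1.23-fold for complex II, 1.26-fold for complexes III and V and 1.37-fold for complex IV, and over HUWE1-WT cells 1.23-, 1.18-, 1.22- and 1.31-fold for II, III, V and IV.

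Ratios of these sums within a library show whether a complex moved apart from the others. The log2 ratio of complex IV to complex III was 0.12 ± 0.0253 (difference ± SE) higher in HUWE1-CS than in HUWE1-P cells and 0.15 ± 0.0322 higher than in HUWE1-WT cells, without overlap of libraries. That of complex V to complex IV differed by -0.13 ± 0.0286 and -0.11 ± 0.0308, and that of complex IV to complex II by 0.16 ± 0.0501 and 0.09 ± 0.0428, again without overlap. Complex V to complex III (-0.00256 ± 0.0166 and 0.04 ± 0.0292) and complex V to complex II (0.04 ± 0.0420 and -0.01 ± 0.0358) overlapped. For complex III to complex II the differences were 0.04 ± 0.0419 with overlap and -0.06 ± 0.0268 without. In the exact two-sided permutation test with 3 against 3 libraries no ratio could go below p = 0.1, and over the 6 pairs of complexes the adjusted p-values ran from 0.15 to 0.9, so that no difference between complexes passed a test. With equal weight for each gene in place of the sum, IV against III and V against IV kept their direction and lack of overlap against both controls, whereas IV against II and III against II then overlapped with HUWE1-WT cells and V against III no longer overlapped with either control.

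The 6 partner subunits from the mitochondrial genome (CYTB in complex III, COX1, COX2 and COX3 in complex IV, ATP6 and ATP8 in complex V) were not called higher in any comparison. Their summed level was 5592 ± 723 CPM in HUWE1-P, 4381 ± 1054 in HUWE1-WT and 3939 ± 527 in HUWE1-CS cells (mean ± SD, n = 3), while the nuclear subunits of the same complexes went from 6813 ± 127 and 7101 ± 331 to 8739 ± 230.3 CPM. COX1, the catalytic core of complex IV, was at 1979, 2269 and 1926 CPM in HUWE1-P, 1759, 1259 and 1919.9 CPM in HUWE1-WT and 1523, 1522 and 1251 CPM in HUWE1-CS cells. The ratio of nuclear to mitochondrial sums was 1.82-fold higher in HUWE1-CS than in HUWE1-P cells without overlap (exact two-sided permutation p = 0.1, the smallest possible) and 1.35-fold higher than in HUWE1-WT cells with overlap (exact permutation p = 0.3). By edgeR 6 of 6 genes fell against HUWE1-P cells (median log2 fold change -0.53), 0 of 6 were called against HUWE1-WT cells (-0.15), and ATP6 and ATP8 were lower in HUWE1-WT than in HUWE1-P cells. These calls rest on single libraries and on the way the spread between libraries is estimated. HUWE1-WT replicate 2 was low in all 6 genes, and without it 5 of 6 were called lower against HUWE1-WT cells (median -0.32) and 0 between the controls. Between the controls it was also 0 without HUWE1-P replicate 1 or 2, and 4 to 6 without HUWE1-P replicate 3, HUWE1-WT replicate 1 or 3 or HUWE1-CS replicate 3. Against HUWE1-P cells 5 of 6 were called without HUWE1-P replicate 2 and without HUWE1-CS replicate 3. DESeq2 and edgeR's robust fit each called 0 of 6 in every comparison, with the same median of -0.53 against HUWE1-P cells. The libraries were made from poly(A) RNA, and the extent to which that step takes up mitochondrial mRNA was not measured.

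Most members are short, and among short genes in general a larger share was called higher in HUWE1-CS cells. The canonical transcripts of the members had a median of 1121 bases, against 3348 bases over the 11059 genes with a length, and 43 of the 61 belonged to the shortest of 5 equal groups of genes (135 to 1810 bases). In that group 18% of all genes were called higher against HUWE1-P cells (median log2 fold change 0.13), and of its 43 members 26 (median 0.38). Against HUWE1-WT cells it was 15.2% of all genes and 23 of the 43 members. Across genes, Spearman's rho of transcript length and log2 fold change was -0.26 against HUWE1-P and -0.20 against HUWE1-WT cells, and -0.15 between the control lines, over genes that share the same 9 libraries. When a trend with length was removed within each library before the test, 18 members rose against HUWE1-P (background 7.67% higher, 8.97% lower) and 13 against HUWE1-WT cells (background 6.82% higher, 8.98% lower), and 0 fell in either.

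The order of the complexes changed with this step. Subunits of complex IV, with the shortest transcripts (median 659.5 bases), had a median of 0.23 after it and 4 of 10 called, complex III 0.24 and 5 of 9, complex V 0.21 and 6 of 17, and complex II 0.13 and 1 of 4, all against HUWE1-P cells, so that the higher median of complex IV was no longer seen. Against HUWE1-WT cells the medians were 0.18, 0.19, 0.19 and 0.20 for complexes II to V. Called in both comparisons after this step were SDHA (0.34 and 0.33 on the log2 scale, against HUWE1-P and HUWE1-WT cells), CYC1 (0.28 and 0.28), UQCRB (0.42 and 0.32), UQCRQ (0.42 and 0.42), UQCC1 (0.50 and 0.40), UQCC3 (0.45 and 0.55), COX4I1 (0.24 and 0.23), COX5B (0.27 and 0.35), COX6C (0.42 and 0.28), ATP5F1B (0.30 and 0.26), ATP5MC3 (0.30 and 0.27) and ATP5PD (0.52 and 0.40). ATP5MC1 was called against HUWE1-P cells (0.38) and not against HUWE1-WT cells (0.27). ATP5IF1, at 0.21 and 0.12, was called in neither. ATP5F1A, at 0.16 (edgeR, adjusted p = 0.0119) and 0.11, was not called either, and came close to the threshold against HUWE1-P cells. Whether the relation with length arises in the cells or in the making of the libraries was not tested.

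Other genes of the same pathway were examined as lists. Of 37 nuclear subunits of complex I, which feeds electrons from NADH into the chain, 14 rose and 0 fell against HUWE1-P cells (median log2 fold change 0.31, background 8.46% higher and 8.58% lower), among them NDUFA13 (0.60) and NDUFS5 (0.46). With the length trend removed, 3 of the 37 (8.11%) were called higher against HUWE1-P cells, near the background of 7.67%, with a median of 0.13. Against HUWE1-WT cells it was then 7 of the 37 (18.9%), above the background of 6.82%, with a median of 0.14. Of 28 further assembly and translation factors of complexes III to V 4 rose and 0 fell, namely SURF1 (0.63), an assembly factor of complex IV, SLIRP (0.45) and LRPPRC (0.22), which together stabilize mitochondrial mRNA, and HIGD2A (0.42), another factor of complex IV. Against HUWE1-WT cells 3 of the 28 rose, SURF1 (0.67), HIGD2A (0.46) and SCO1 (0.50), a copper chaperone of complex IV, whereas SLIRP (0.22; edgeR, adjusted p = 0.166) and LRPPRC (0.19; edgeR, adjusted p = 0.0210) were not called. In the citric acid cycle 4 of 14 genes rose, IDH2 (0.89), SUCLG2 (0.48), IDH3B (0.46) and MDH2 (0.41), and the gene for citrate synthase fell (-0.63). Mitochondrial ribosomal proteins, with 8 of 78 called higher and 1 lower (median 0.13), stood beside a background of 8.46% called higher, with MRPS16 (0.43) and MRPL24 (0.53) among those called higher. Cytosolic ribosomal proteins, which are also short, rose in 78 of 92 cases and fell in 0 (median 0.41), with RPS27L (1.38), a relative of RPS27, and RPS18 (0.65) in front. With the length trend removed, 59 of the 92 (64.1%) were called higher against HUWE1-P and 58 (63%) against HUWE1-WT cells. The shares of the members were then 29.5% and 21.3%. For mitochondrial ribosomal proteins it was 2 of 78 higher and 2 lower against each control line.

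Of 21 transcriptional regulators of respiratory genes, 1 rose and 3 fell against HUWE1-P cells, shares of few genes beside a background of 8.46% higher and 8.58% lower. ESRRA, a nuclear receptor that acts on many respiratory genes, rose by 0.53 ± 0.0991 (SE; edgeR, adjusted p = 1.12e-05) on the log2 scale. PPARGC1B, a coactivator of the same pathway, was at 41.0, 35.9 and 31.3 CPM in HUWE1-P, 26.1, 27.3 and 28.5 CPM in HUWE1-WT and 12.5, 11.9 and 22.1 CPM in HUWE1-CS cells, and its log2 fold change was -1.20 ± 0.197 (SE; edgeR, adjusted p = 5.72e-07). HIF1A (-0.47), the oxygen-regulated factor, and SP1 (-0.40) fell too. The median of the list was -0.03. Against HUWE1-WT cells, with a background of 7.42% higher and 8.08% lower, 12 of the 37 complex I subunits rose. With the length trend removed it was 7 of the 37, beside a background of 6.82% called higher. Without that step, 77 of 92 cytosolic and 3 of 78 mitochondrial ribosomal proteins rose against HUWE1-WT cells, the latter a share of 3.85%. In the citric acid cycle 3 of 14 genes rose and 1 fell there, and of the 21 regulators 1 rose and 3 fell.

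Levels of different genes can be compared only per length, and depend on the length that is used. Per kb of canonical transcript, the highest level in HUWE1-P cells was that of ATP5F1B in complex V, at 694 CPM per kb. COX4I1 led complex IV (480.5), UQCRH complex III (263) and SDHB complex II (124). Per kb of all annotated exons, ATP5F1B (545) and SDHB (51.7) stayed first in their complexes, while COX8A (261) and CYC1 (122) led complexes IV and III. The members lie on 22 chromosomes, with at most 6 on any of them, and those called higher against HUWE1-P cells lie on 17.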

How the data were processed

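RNA of HCT116 cells in 3 lines was sequenced as 9 poly(A) libraries. Per the labels and the submitters' processing notes, the authors demultiplexed reads with bcl2fastq 2.20, trimmed adapters, mapped to hg19 with STAR 2.5.4 and deposited unnormalized counts of reads per gene. Which program and annotation produced the counts, whether it used strand, and how low genes were removed are not given in the sources used here. Tables of the authors' own edgeR 3.26.8 comparisons (fold changes, F, p and FDR) were not used.

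Counts were analysed in R 4.3.3 with edgeR 4.0.16 (TMM, glmQLFit with legacy = TRUE, glmQLFTest, all 9 libraries, line as the term, Benjamini-Hochberg over 11350 genes, FDR of at most 0.01). filterByExpr removed 0 genes, and 147 genes without a symbol (0.505% of counts) were kept. The common biological coefficient of variation was 4.77%. CPM are TMM-normalized. Chi-square per degree of freedom between replicates was 1.16 to 1.65, so that no library was a copy of another. This value does not tell whether the libraries of a line come from separate cultures. Positions and lengths came from GENCODE on GRCh37, promoters from RefSeq on GRCh38.p14. Ratios and shares were compared by exact permutation tests in Python 3.11.15 with SciPy 1.17.1. The scripts were tested on simulated data. Alternatives were DESeq2 1.42.0, limma-voom 3.58.1, other scaling, filters, trends, thresholds, a replicate block and omission of each library; levels per canonical length were added after seeing the data.

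Members and lists were chosen with earlier results of these data known. Genes were named by a rule, per complex and kind the 4 smallest p-values against HUWE1-P cells and the lowest fold change, gene variants of 1 subunit, ATP5IF1, CYCS, CYC1, the mitochondrially encoded genes and the 2 smallest p-values of each further list. Other genes were named after their values were seen, to account for the remaining members and for counts of 5 or fewer.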

Additional observations from a re-analysis of the deposited data

How the results depend on the processing

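The direction held throughout: 0 members were called lower in HUWE1-CS cells under any alternative. Leaving out a library in turn gave 28 to 32 members called higher against HUWE1-P cells and 22 to 27 against HUWE1-WT cells, and 0 between the controls, DESeq2 gave 26 and 20, and a minimum of 0.5 on the size of the log2 fold change left 15 and 5. Removing the trend with transcript length left 18 and 13 members, with or without the replicate block. Medians of the subunits against HUWE1-P cells were then 0.13 for complex II, 0.24 for III, 0.23 for IV and 0.21 for V (0.22 with the replicate block), and against HUWE1-WT cells 0.18 for II, 0.19 for IV and 0.20 for V. The cause of the trend was not tested. Without 1 library the medians against HUWE1-P cells ran from 0.27 to 0.37 for complex III and from 0.34 to 0.41 for complex V, and against HUWE1-WT cells from 0.35 to 0.45 for complex IV. Levels per length depend on the length taken, with a median of the members of 60.8 CPM per kb of exons in HUWE1-P cells, 228 with the median transcript and 135 with the canonical transcript.

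The replicate block alone called 32, 29 and 0 members in the 3 comparisons. Over all genes, deviations of libraries with the same number correlated by -0.023 to 0.060. Over the members these correlations ran from -0.17 to 0.32, and those of libraries with different numbers from -0.43 to 0.22. Whether libraries with the same number belong together was not tested. Of the calls of single named genes, 935 alternatives kept the call, 79 lost it and 0 turned its direction.

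SDHAF1, with few counts, had an SE of 0.209 on the log2 scale against HUWE1-P cells, and ATP5PD 0.0793, and the part of depth in which genes were called was not tested.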
